A study of Mus musculus with 18 samples.

Results

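Potassium channel genes were examined in RNA-seq of the striatum, the brain region that degenerates first in Huntington’s disease (HD). The set was taken from gene symbols, as the protein-coding genes named Kcn with a family letter and a number or Kcnab with a number, without Kcnj10 and Kcnj13, and with a summed count of 100 or more over all libraries. Of 90 matching genes, 76 met that minimum, out of 21976 protein-coding genes in a table of 55421. The 18 mice, 1 library each, were 12 to 14 months old and fell into 4 genotypes. They were 5 WT mice, 5 zQ175 mice, 3 CK2α’(±) mice and 5 zQ175:CK2α’(±) mice. zQ175 mice are heterozygous for a knock-in of an expanded CAG repeat in the endogenous Htt gene. CK2α’(±) mice lack 1 allele of Csnk2a2, the gene of the catalytic CK2α’ subunit, in every cell. All 18 carry C57BL/6 as strain in the labels. Per the study’s methods, the CK2α’ line came from a mixed 129/SvEv-C57BL/6J stock and was then bred for many generations with the other lines, so that every mouse had the C57BL/6J background. The labels give neither sex nor batch for a library, and the study’s methods state sex ratios that differ between genotypes. Xist, the RNA of X inactivation in female cells, was above 500 CPM in 4 of 5 WT, 2 of 5 zQ175, 1 of 3 CK2α’(±) and 4 of 5 zQ175:CK2α’(±) libraries, so sex and genotype are unevenly crossed.

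Potassium channels let K+ leave the cell, set the resting potential, and end action potentials. In striatal projection neurons, the GABAergic spiny cells that make up most striatal neurons, inward rectifiers of the Kir2 family hold the cell at a hyperpolarized resting potential. A-type channels of the Kv4 family work with KChIP subunits. Kv1, Kv2, Kv3 and Kv7 channels shape spike threshold, repolarization and repetitive firing, two-pore channels carry leak current, and BK and SK channels are opened by calcium.

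Total counts ranged from 13612381 to 22702547 per library, and 0.371% to 0.478% of them fell on the 76 genes. The 14 genes under the minimum were Kcna7, Kcna10, Kcne1, Kcne3, Kcnj1, Kcnj15, Kcnk7, Kcnk15, Kcnk16, Kcnk18, Kcnmb3, Kcnn4, Kcnq1 and Kcnv2. Their summed counts reached at most 48 over the 18 libraries, and Kcne1 had 0. Just inside the minimum were Kcnk5 with 167 counts and Kcnj14 and Kcnmb1 with 266 each. All 76 genes passed the filter on low counts, which asks for enough reads in only as many libraries as the smallest group has.

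The levels in WT mice, given as RPKM to allow comparison between genes of different length, spanned a wide range. Kcnip2, which encodes the main KChIP partner of Kv4 channels, had the highest RPKM (33.3 ± 7.57, SD, n = 5). The Kv4 pore gene Kcnd2 followed (31.8 ± 5.42 RPKM), then the two-pore gene Kcnk1 (31.3 ± 3.71 RPKM) and the inward rectifier gene Kcnj4 (29.9 ± 7.05 RPKM). Kcna1 (24.9 RPKM), Kcnab2, Kcna4, Kcna2 and Kcnip3 were also among the 10 highest. In this order each gene overlapped the next over the 5 WT mice, so the ranks of neighbours are not separated by the data. At the other end, Kcnk5 (0.168 ± 0.123 RPKM) and the BK beta subunit gene Kcnmb1 (0.178 ± 0.0973 RPKM) had the lowest levels.

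Summed over families, the 6 Kv1 genes gave 83.6 ± 9.25 RPKM in WT mice, which was 13.8% of the RPKM of all members. The 4 KChIP genes gave 64.9 ± 8.68 RPKM, the 10 two-pore genes 59.3 ± 9.14 RPKM and the 4 Kv7 genes 52.2 ± 9.46 RPKM. Among inward rectifiers, Kcnj4 made up most of the Kir2 sum of 40.5 ± 8.62 RPKM, while the 4 Kir3 genes, which encode G protein-gated channels, summed to 15.8 ± 3.60 RPKM. The KCNE subunit genes had the lowest family sum, 1.67 ± 1.80 RPKM, with an SD larger than its mean. Its highest gene, Kcne2, was at 5.03 and 6.88 CPM in WT mice 1 and 3 and at 0.0444 to 0.185 CPM in the other WT mice.

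**Figure D1:**
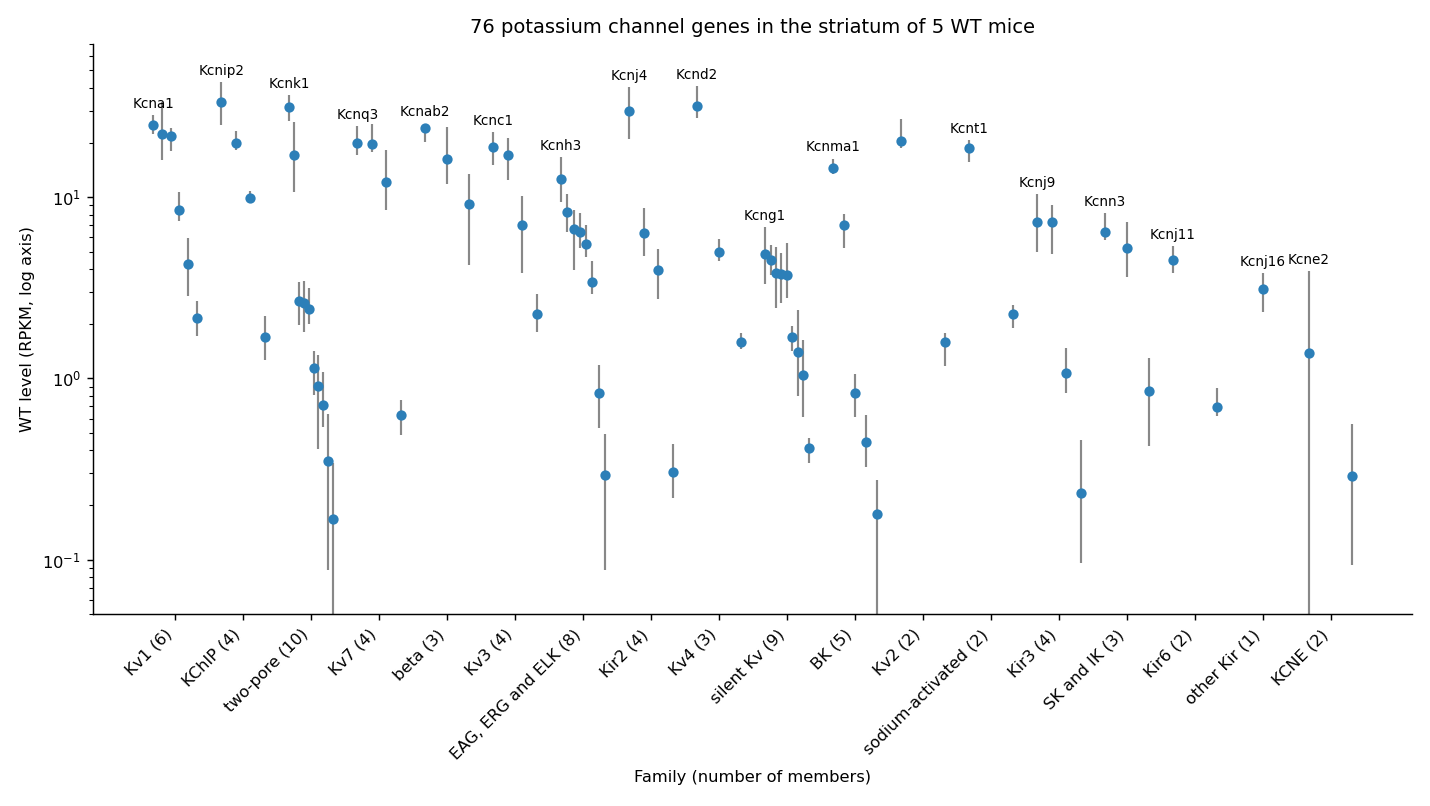
WT level of each of the 76 genes (RPKM on a log axis) by family, with families ordered by their summed RPKM. Points are means and lines run from the lowest to the highest of the 5 WT mice (lines that reach the lower edge go to values below the axis). The highest gene is named in all families but one, from Kcnip2 at 33.3 RPKM to Kcne2 at 1.38 RPKM. The Kcne2 mean rests on WT mice 1 and 3.

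Several libraries stood apart in markers of tissue next to the striatum, and some potassium channel genes had their extreme values there. The library of zQ175 mouse 1 had 1219 CPM summed over 4 thalamic markers, all detected, against at most 636 CPM in any other mouse, and it had the lowest sum over 10 markers of striatal projection neurons, 1591 CPM. It held the highest value of the 18 mice for 20 members and the lowest for 15. The library of zQ175 mouse 5 had 331 CPM over 7 cortical markers, against at most 93.9 CPM elsewhere. WT mice 1 and 3, CK2α’(±) mouse 1 and zQ175:CK2α’(±) mouse 2 had 972 to 3072 CPM over 5 choroid plexus markers, and the other 14 mice had at most 21.5 CPM. Csnk2a2 checked the CK2α’ labels: it lay at 14.7 to 19.9 CPM in the 8 mice with 1 deleted allele and at 29.4 to 37.5 CPM in the other 10. The Htt level gave no such check of the knock-in labels (zQ175 against WT, log2 fold change −0.04, SE 0.0932, adjusted p = 0.876 by edgeR). Several fold changes that the libraries standing apart moved are given with and without them.

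To ask how the knock-in bears on these genes, zQ175 mice were compared with WT mice. Kcnh7, which encodes an ERG-type channel of the Kv11 family, was the member that passed edgeR’s test, and it was higher in zQ175. Its level was 50.4, 67.3, 48.5, 48.3 and 44.5 CPM in the 5 WT mice, and 68.0, 66.8, 59.8, 67.9 and 79.8 CPM in the 5 zQ175 mice. WT mouse 2 reached the zQ175 range, and the other 4 WT mice lay below every zQ175 mouse. The log2 fold change was 0.40 (SE 0.103, adjusted p = 0.0913), a level 32.2% higher. This was 1 of 76 members, or 1.32%, beside 1.1% of all genes tested (230 of 20914), so the share of members called was close to the background. The call was lost in 14 of the 18 fits that left out 1 mouse. It was kept without WT mouse 2, zQ175 mouse 3, CK2α’(±) mouse 3 or zQ175:CK2α’(±) mouse 4, and without zQ175 mice 1 and 5 its log2 fold change was 0.33 (adjusted p = 0.334). With the Xist level as a covariate it was 0.39 (adjusted p = 0.120), and without the 4 libraries high in choroid plexus markers 0.36 (adjusted p = 0.554). The 6 cortical markers that could be tested were all higher in zQ175 (median log2 fold change 1.62), Tbr1 among them passed, and the sum over the list was 60.9 to 331 CPM in zQ175 and 23.8 to 55.5 CPM in WT mice. Without zQ175 mouse 5 the median was 0.83 and none was called. The 4 thalamic markers were on the higher side with zQ175 mouse 1 (median 0.91, none called) and on the lower side without it (median −0.12). The part of either list in the Kcnh7 values was not tested.

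Kcnh7 lies on chromosome 2 (GRCm38, bases 62693414 to 63184287, minus strand). Kcnip3, the other member that edgeR called in any comparison, lies on the same chromosome (bases 127456498 to 127522094, minus strand). The 250 bases before each start are shown because these are the only members that passed edgeR’s test. They come from RefSeq, build GRCm38.p6, at chr2:63184288-63184537 and chr2:127522095-127522344, both on the minus strand. Capitals would mark a match to the motifs TGACGTCA, TGACG or TTCAGCACC on either strand, and neither stretch holds one.
Kcnh7: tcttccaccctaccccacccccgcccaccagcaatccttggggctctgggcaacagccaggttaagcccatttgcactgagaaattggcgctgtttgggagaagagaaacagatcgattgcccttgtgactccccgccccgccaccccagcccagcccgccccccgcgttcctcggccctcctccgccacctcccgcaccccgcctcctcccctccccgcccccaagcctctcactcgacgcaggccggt
Kcnip3: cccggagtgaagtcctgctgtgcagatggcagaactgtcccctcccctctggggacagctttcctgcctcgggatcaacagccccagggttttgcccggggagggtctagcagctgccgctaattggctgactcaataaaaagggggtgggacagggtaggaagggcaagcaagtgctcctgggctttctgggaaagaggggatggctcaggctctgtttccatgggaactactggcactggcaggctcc
The Kcnh7 stretch has 16 CG dinucleotides and 67.6% G or C, and the Kcnip3 stretch has 4 CG dinucleotides. RefSeq lists further starts for Kcnip3, of which one further into the gene has 23 CG dinucleotides before it (chr2:127482500-127482749). Promoters were found for 54 of the 76 genes, and their median was 60.8% G or C, beside 52.0% for 27025 genes. The members are all protein-coding, and the 27025 outnumber the 21976 protein-coding genes of the count table. The shares below are therefore not matched in gene type. The cAMP response element TGACGTCA was in 0 of 54 (1.77% of all genes), its half-site TGACG, which the full element contains, in 22.2% (19.8% of all genes), and the RE1 half-site TTCAGCACC in 1, Kcnh6 (0.348% of all genes).

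Short of the FDR of 0.1, the lower members with the smallest p in zQ175 were Kcnt1, Kcnip2 and Kcnh4. Kcnip2 measured 135, 159, 129, 97.6 and 92.0 CPM in WT mice and 41.8, 83.2, 82.2, 83.9 and 97.4 CPM in zQ175 mice. All zQ175 mice but mouse 5 were below every WT mouse, and mouse 1 was lowest by far. Its log2 fold change was −0.66 (SE 0.190, adjusted p = 0.122), and without zQ175 mouse 1 it was −0.50 (adjusted p = 0.171). Kcnt1, the gene of the sodium-activated channel Slack, had a log2 fold change of −0.36 (SE 0.103, adjusted p = 0.119), with 149 to 196 CPM in WT and 122 to 155 CPM in zQ175. Kcnh4, an ELK-type channel gene, had −0.68 (SE 0.204, adjusted p = 0.138), with 15.6 to 33.4 CPM in WT and 10.5 to 21.3 CPM in zQ175. DESeq2, run as a second test, called Kcnip2, Kcnt1, Kcnh4 and Kcnma1 as well as Kcnh7, 5 of 71 members that it gave an adjusted p for, where it called 5.26% of all genes.

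Kcnma1, the pore gene of BK channels, measured 228, 277, 233, 239.8 and 243 CPM in WT mice and 344, 262, 288, 284 and 312 CPM in zQ175 mice. WT mouse 2 was above zQ175 mouse 2, and otherwise the groups were apart. The log2 fold change was 0.29 (SE 0.0867, adjusted p = 0.139), and 0.19 (adjusted p = 0.505) without zQ175 mice 1 and 5. The 4 Kir3 genes had log2 fold changes from 0.24 to 1.10, and none passed. The lowest was that of Kcnj5, which turned to −0.64 (SE 0.547) without zQ175 mouse 1. Kcnj6, which encodes GIRK2, had the largest of them (1.10, SE 0.381, adjusted p = 0.190). It was at 21.3 and 35.9 CPM in zQ175 mice 1 and 5 and at 7.78 to 14.0 CPM in the other 3, beside 6.35 to 11.2 CPM in WT mice. Without zQ175 mouse 5 the log2 fold change of Kcnj6 was 0.66 (adjusted p = 0.459), and without mice 1 and 5 it was 0.31 (adjusted p = 0.815). Kcnj3 had 0.56 (SE 0.226, adjusted p = 0.272), and 0.22 (adjusted p = 0.801) without zQ175 mice 1 and 5. Kcnj9 had 0.44 (SE 0.222, adjusted p = 0.387), and 0.22 (adjusted p = 0.711) without zQ175 mouse 1. Kcnj4 and Kcnj2, the Kir2 genes of the resting conductance, gave a log2 fold change of −0.45 (SE 0.188, adjusted p = 0.293, or −0.28 without zQ175 mouse 1) and of −0.20 (SE 0.209, adjusted p = 0.725, or −0.04 without that mouse). Kcnd2 was at 141 to 212 CPM in WT and at 147 to 179 CPM in zQ175 mice, and did not differ beyond that spread.

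At an unadjusted p under 0.05, 18 of the 76 genes differed, 7 higher and 11 lower in zQ175. That is 23.7% of members beside 13.9% of all genes, of which 6.79% were higher and 7.1% lower, and the median log2 fold change of the members was 0.01. By family, 2 of 8 EAG, ERG and ELK genes and 2 of 4 KChIP genes were among the 11 lower. Among the 7 higher were 2 of 4 Kir3 genes, Kcnj3 and Kcnj6, whose values without zQ175 mice 1 and 5 are given above. Of the 76, 55 had a 95% interval that stayed within 1 log2 unit of 0, so that a change of that size would lie outside it. Kcnip3 and Kcns1 were lower without overlap between the groups, as were 1.19% of all genes. The 10 projection neuron markers were all lower in zQ175 (median log2 fold change −0.66), and Penk, Adora2a and Ppp1r1b among them passed, though none did without zQ175 mouse 1 or without mouse 5. Their sum was 2910 to 6870 CPM in WT and 1591 to 3229 CPM in zQ175 mice. WT mice 4 and 5, at 3006 and 2910 CPM, lay within the zQ175 range, and WT mice 1 to 3 were at 4459 to 6870 CPM. In bulk tissue, fewer cells of a type and less RNA per cell cannot be told apart. The part of these markers in the values above was not tested.

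In mice with 1 CK2α’ allele the same knock-in can be examined in different animals, by comparing zQ175:CK2α’(±) with CK2α’(±). Kcnip3 encodes KChIP3, a calcium sensor that binds Kv4 channels and is also known as the transcriptional repressor DREAM. It was lower in zQ175:CK2α’(±) and was the member that passed edgeR’s test. Its level was 75.3, 82.9 and 98.6 CPM in the 3 CK2α’(±) mice and 61.5, 48.7, 52.5, 62.2 and 63.6 CPM in the 5 zQ175:CK2α’(±) mice. The groups did not overlap, and the log2 fold change was −0.57 (SE 0.107, adjusted p = 0.0335), a 1.48-fold lower level. In this comparison 0.593% of all genes were called (124 of 20914), beside 1 of 76 members. At an unadjusted p under 0.05 there were 10 members (13.2%, beside 9.19% of all genes), 9 of them lower (4.86% of all genes were). The 10 projection neuron markers were likewise all lower (median log2 fold change −0.74, Penk and Adora2a called), with sums of 2661 to 3770.2 CPM in zQ175:CK2α’(±) and 4860.5 to 6812 CPM in CK2α’(±) mice that did not overlap. The 4 thalamic markers were lower as well (median −0.66, none called), and the part of either list in the members’ values was not tested. The call ended without CK2α’(±) mouse 2 (adjusted p just above 0.1) or mouse 3 (adjusted p = 0.257), and without the 4 libraries high in choroid plexus markers (adjusted p = 0.152), where the log2 fold change was still −0.60. With 3 mice in one group, 11 members did not overlap between the groups, all lower in zQ175:CK2α’(±), where 4.48% of all genes were lower without overlap. DESeq2 called Kcnip3, Kcnt1, Kcnip2 and Kcnk13, and 1.47% of all genes.

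Kcnip3 was also the single member whose values in the 10 mice with the knock-in all lay below those in the 8 without. It measured 48.7 to 63.9 CPM in the former and 64.8 to 98.6 CPM in the latter. Only 14 of 20914 genes (0.0669%) were separated in that way and direction. Against WT it was 64.8 to 82.0 CPM beside 51.4 to 63.9 CPM in zQ175 mice (log2 fold change −0.29, SE 0.0944, adjusted p = 0.166). It was singled out after its values were seen, so this is a description.

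The comparison of zQ175 with WT and that of zQ175:CK2α’(±) with CK2α’(±) share no mouse, and their fold changes can be set side by side. Of the 11 members lower in zQ175 at an unadjusted p under 0.05, 9 were lower in zQ175:CK2α’(±) too, or 81.8%, beside 73.4% of all genes treated the same way. The unadjusted p was under 0.05 in both for 6 of them: Kcnip2, Kcnip3, Kcnt1, Kcnh4, Kcnab1 and Kcnk13. That is 54.5% of the 11, beside 23% of the 1485 genes that were lower in zQ175 at that p. Kcnab1, a beta subunit of Kv1 channels, had log2 fold changes of −0.33 (−0.16 without WT mouse 2) and −0.46, and Kcnk13, the two-pore channel THIK1 that is best known in microglia, had −0.40 and −0.70. Of the 7 members higher in zQ175, 2 were higher again, or 28.6%, beside 74.0% of all genes. They were Kcnh7, whose log2 fold change in the second comparison was 0.06 (SE 0.119), and Kcna3, with 0.53 in the first and 0.92 in the second (adjusted p = 0.274). Over all 76 genes the fold changes of these comparisons had a Spearman rho of 0.12 and a Pearson r of −0.20 across genes, beside 0.20 and 0.13 over all genes tested. Kcne2, with −4.22 in the first and 0.90 in the second, lay far from all other members in the first. The Pearson r without Kcne2 was not computed. The direction was the same in both for 51.3% of members and 59.4% of all genes.

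**Figure D2:**
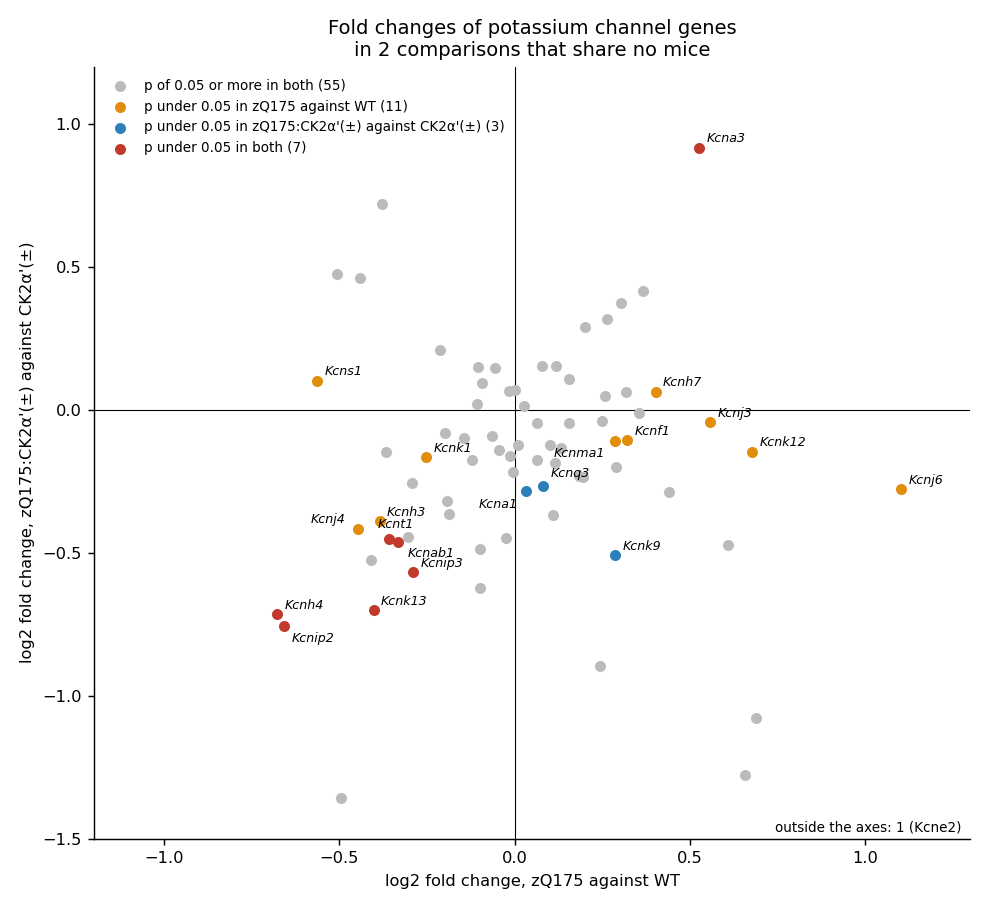
Log2 fold change of each member in zQ175 against WT (horizontal axis) and in zQ175:CK2α’(±) against CK2α’(±) (vertical axis), colored by the unadjusted p, with 1 gene, Kcne2, outside the axes. The lower left holds 6 of the 7 genes with p under 0.05 in both, and Kcna3 is the one in the upper right.

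**Figure D3:**
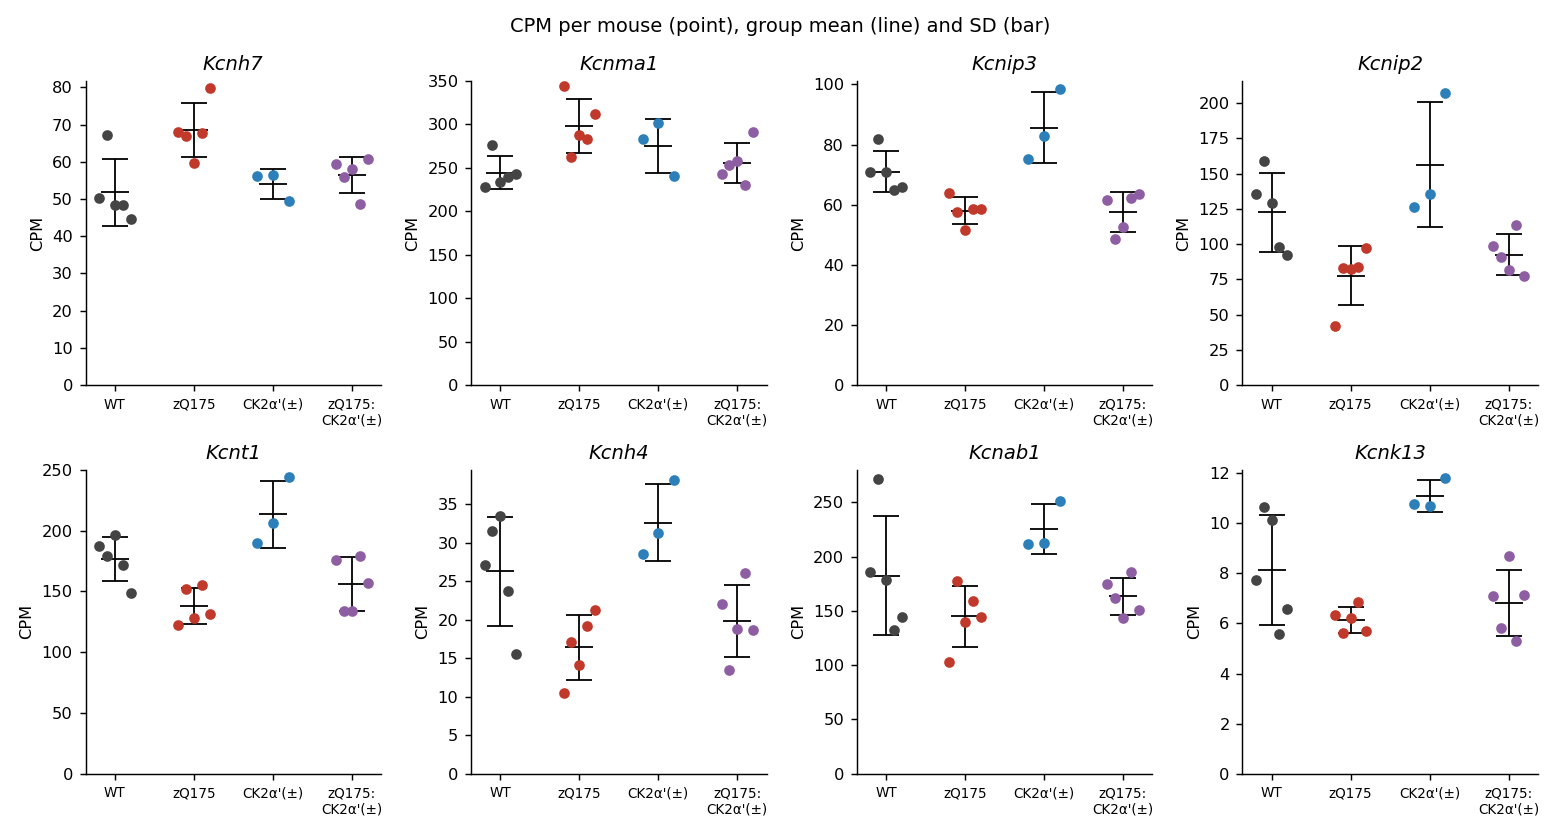
CPM of 8 members in each of the 18 mice (points), with the group mean and SD, on axes that start at 0. Kcnh7 and Kcnma1 are highest in zQ175 mice, the 6 others are lower in mice with the knock-in, and all 10 knock-in mice lie below 64.8 CPM for Kcnip3.

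Loss of 1 CK2α’ allele was addressed in 3 further comparisons, and none of the 76 members passed edgeR’s or DESeq2’s test in any of them. edgeR called 0.0143% of all genes in each, and DESeq2 0.0293% for CK2α’(±) against WT, 0.145% for zQ175 against zQ175:CK2α’(±) and 0.725% for zQ175:CK2α’(±) against WT. For CK2α’(±) against WT, 5 members had an unadjusted p under 0.05 (4.48% of all genes did), all higher in CK2α’(±) (1.99% of all genes were). Kcnq3, a subunit of the M-type Kv7 channel, had the lowest p of these, at 344 to 378 CPM in CK2α’(±) and 250.2 to 364 CPM in WT (log2 fold change 0.29, SE 0.101, adjusted p = 0.999). Kcnip3 (0.27), Kcna1 (0.25), Kcnt1 (0.27) and Kcnk13 (0.45) were the others. Without CK2α’(±) mouse 3 that of Kcnip3 was 0.16 and that of Kcnt1 0.17. Kcnk13 was at 10.7 to 11.8 CPM in CK2α’(±), just above the 5.60 to 10.7 CPM of WT mice, and was the member higher without overlap, as were 1.43% of all genes. Of all members 52 had a positive log2 fold change and the median was 0.10, beside −0.01 over all genes. The 10 projection neuron markers were all on the higher side as well, with a median of 0.30 and none called. So were the 4 thalamic markers (median 0.50, none called), whose sum was 103 to 636 CPM in CK2α’(±) and 114 to 411 CPM in WT mice. The part of either list in the members’ values was not tested.

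For zQ175 against zQ175:CK2α’(±), the comparison of interest for a rescue by lower CK2α’, 12 members had an unadjusted p under 0.05, or 15.8%, where 6.27% of all genes did. Of these 12, 11 were higher in zQ175, where 3.51% of all genes were. Kcnj6 had the lowest p of them, with a log2 fold change of 1.48 (SE 0.389, adjusted p = 0.438), from 7.78 to 35.9 CPM in zQ175 and 2.02 to 10.7 CPM in zQ175:CK2α’(±). Kcnk9, the acid-sensitive two-pore channel TASK3, had 0.65 (SE 0.204, adjusted p = 0.585), and Kcnip4 had 0.42 (SE 0.155, adjusted p = 0.637). Both were highest in zQ175 mouse 1, at 67.3 CPM for Kcnk9, where the next mouse had 43.4 CPM, and at 63.8 CPM for Kcnip4, where the next had 41.5 CPM. Without that mouse the log2 fold changes were 0.38 (adjusted p = 0.852) for Kcnk9 and 0.20 (adjusted p = 0.903) for Kcnip4. Without zQ175 mice 1 and 5 that of Kcnj6 was 0.68 (adjusted p = 0.999). Kcnh7 and Kcnma1 were also among the 11, with 0.28 (adjusted p = 0.644) and 0.22 (adjusted p = 0.666), or 0.20 and 0.12 without zQ175 mice 1 and 5. In this comparison the 6 cortical markers tested (median 1.84) and the 4 thalamic markers (median 1.18) were all on the higher side in zQ175, with none called. Without zQ175 mouse 5 the cortical median was 1.32, with 5 of 6 higher, and without mouse 1 the thalamic median was 0.18, with 3 of 4 higher. The part of these markers in the members’ values was not tested.

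In zQ175:CK2α’(±) against WT, 2 members had an unadjusted p under 0.05, Kcnip3 (log2 fold change −0.30, SE 0.0944, adjusted p = 0.356) and Kcnip2 (−0.40, SE 0.189, adjusted p = 0.532). That was 2.63% of members where 9.13% of all genes did. The 10 projection neuron markers were all lower in this comparison as well (median log2 fold change −0.44, none called). So were the 4 thalamic markers (median −0.27, none called), and the part of either list in the members’ values was not tested. Kcnip3 measured 70.7, 82.0, 71.0, 64.8 and 66.0 CPM in WT mice, all above the 5 zQ175:CK2α’(±) mice, and 0.899% of all genes were lower without overlap. The interaction of both genotypes, which asks whether the knock-in acted differently with 1 CK2α’ allele, called 0 members by edgeR or DESeq2 (0.00478% and 0.103% of all genes), and had 9 with an unadjusted p under 0.05 (11.8%, beside 5.39% of all genes). The lowest p was that of Kcnma1, whose log2 difference was −0.40 (SE 0.132, adjusted p = 0.832). Kcnip2 did not pass between the knock-in groups (zQ175 against zQ175:CK2α’(±), log2 fold change −0.25, 95% interval −0.63 to 0.13, adjusted p = 0.885). Without zQ175 mouse 1 the log2 fold change was −0.10 (adjusted p = 0.971). The intervals in the interaction were wide: 43 of 76 stayed within 1 log2 unit of 0.

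Across the 18 mice, the members differed in which of the neuronal marker lists below they followed. Correlations with markers of glia, interneurons or vessels were not computed. For each member the log2 CPM was correlated with the log2 summed CPM of markers of striatal projection neurons, thalamic neurons and cortical excitatory neurons. These 228 relations were computed after the libraries that stand apart had been seen, with permutation tests adjusted over all 228, and both sides are shares of the same library. Kcnip2 had the highest Pearson r with the projection neuron sum, just above Kcnab1, which was ahead by Spearman rho (0.91) and within genotypes (Kcnip2: Pearson r = 0.96, Spearman rho = 0.89, both p = 1e-05, the smallest that 100000 permutations can give, adjusted p = 0.000253 and 0.000456). It kept r = 0.95 without the 2 mice farthest from the median sum, and r = 0.91 within genotypes, after each genotype’s mean was taken off. Kcnab1 (r = 0.96, within genotypes 0.95), Kcnh3 (0.94 and 0.92), Kcnj4 (0.91 and 0.87), Kcnk2 (0.91 and 0.92), Kcnh4 (0.87 and 0.72), Kcnq5 (0.85 and 0.88) and Kcnt1 (0.83 and 0.61) did likewise. An r of 0.7 or more with this sum was found for 10 of 76 members (13.2%), beside 3.08% of all genes tested other than the markers, and an r of −0.7 or less for 1 member (1.32%, beside 1.46%).

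Kcnip3 was not among the closest. Its r with the projection neuron sum was 0.69 (permutation, adjusted p = 0.0095, rho = 0.59), but 0.48 without 2 mice and 0.30 within genotypes. These values were not compared by a test. Kcnk13 was between, with 0.73 over all mice and 0.42 within genotypes.

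With the thalamic sum, r was 0.7 or more for 15 members (19.7%, beside 2.4% of all genes tested other than the markers) and −0.7 or less for 4 (5.26%, beside 1.02%). Kcnc2, a Kv3 channel gene of fast-spiking neurons, rose with it (r = 0.96, rho = 0.89, permutation, adjusted p = 0.000253 and 0.000651, within genotypes 0.97). Its CPM was 164 in zQ175 mouse 1, where the thalamic sum was highest, and 27.1 to 97.3 in the other 17 mice. Kcnc1 (r = 0.92) and Kcnj9 (r = 0.89) behaved alike, and Kcnh1 ran the other way (r = −0.81). The cortical sum was followed by Kcnj6 (r = 0.80, rho = 0.62, permutation, adjusted p = 0.000912 and 0.0438), Kcnh7 (r = 0.74, rho = 0.66, adjusted p = 0.00355 and 0.0297), Kcnj3 and Kcnma1 (both r = 0.72). In all, 4 members (5.26%) had an r of 0.7 or more with it, beside 0.545% of all genes tested other than the markers. Kcnj3 was not particular to this list, with r = −0.73 for the projection neuron sum and 0.65 for the thalamic sum. Without zQ175 mouse 5 and WT mouse 1, the 2 farthest, r was 0.70 for Kcnj6, 0.59 for Kcnh7 and 0.70 for Kcnma1, and within genotypes 0.65, 0.55 and 0.58. All 4 had positive log2 fold changes in zQ175 against WT, and the part of cortical or thalamic tissue in their fold changes was not tested.

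Kcne2, which encodes a small subunit that is abundant in choroid plexus, was at 3.48 to 12.5 CPM in the 4 mice high in choroid plexus markers and at 0 to 0.450 CPM in the other 14, so no correlation was computed over these separate groups. None of the 5 zQ175 mice was among the 4, and its log2 fold change in zQ175 against WT was −4.22 (SE 1.68, adjusted p = 0.266). Without the 4 libraries Kcne2 did not pass the filter on low counts and has no fold change.

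**Figure D4:**
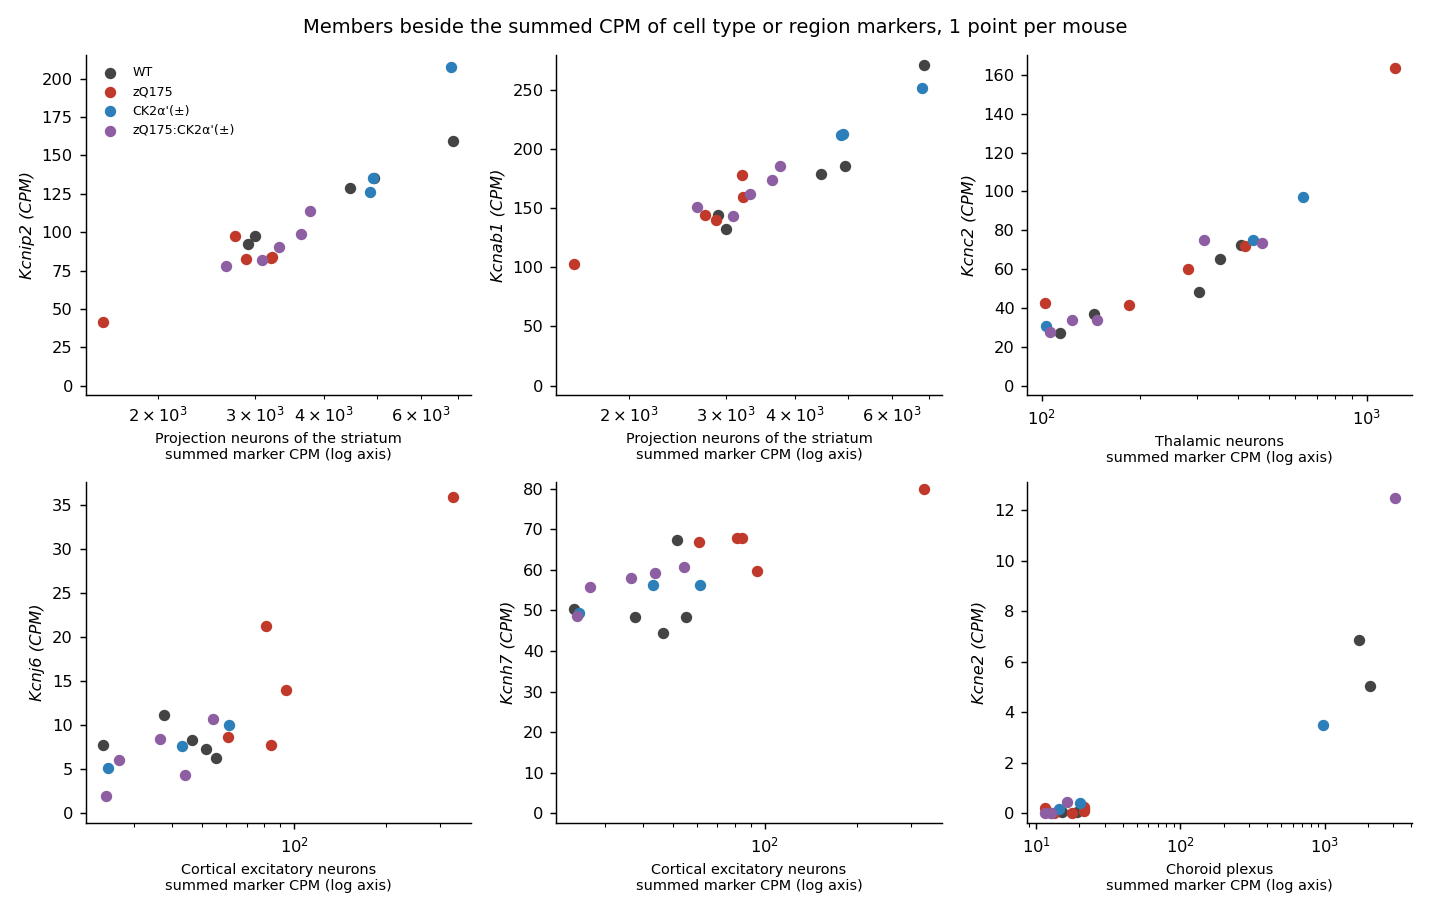
CPM of 5 neuronal members and Kcne2 (vertical axes) against the summed CPM of marker genes (horizontal log axes) in each of the 18 mice, colored by genotype. Kcnip2 and Kcnab1 follow the projection neuron sum and Kcnc2 the thalamic sum, Kcnj6 and Kcnh7 are highest in the mouse with 331 CPM of cortical markers, and Kcne2 is above 3 CPM only in the 4 mice with 972 CPM or more of choroid plexus markers.

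Of 20 further genes whose proteins assemble with or resemble these channels, 17 were tested and 0 were called by edgeR in any of the 6 comparisons. At an unadjusted p under 0.05 there were 2 in zQ175 against WT, 1 in zQ175 against zQ175:CK2α’(±) and 2 in the interaction, or 11.8%, 5.88% and 11.8% of the 17, beside 13.9%, 6.27% and 5.39% of all genes. The 20 included the Kv4 partners Dpp6 and Dpp10 and the Kv1 partners Cntnap2, Cntn2, Lgi1 and Adam22. Dpp6 was at 255 ± 7.39 CPM in WT and 265 ± 10.9 CPM in zQ175 mice, while its partner subunit Kcnip2 had the values given above.

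Some members are neighbours or overlap, which limits how their counts can be told apart. Kcnmb1 lies within Kcnip1 on the opposite strand, and 37 of the 76 genes overlap some other gene, Kcnh7 and Kcnma1 among them. The strand setting of the counting is not given in the sources used here. On chromosome 6, Kcna5, Kcna1 and Kcna6 are adjacent and had WT levels of 4.28, 24.9 and 8.46 RPKM. The members’ genes are long, with a median span of 43730 bases beside 25545 bases for all protein-coding genes tested, and their median summed exon length was similar, 4572 and 4484 bases.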

How the data were processed

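Striatal RNA of 18 mice was sequenced as stranded total RNA libraries, 1 per mouse. Per the labels and the study's methods, Trimmomatic and HISAT2 2.1.0 (GRCm38) were used for trimming and alignment, and duplicate, unmapped or poorly mapped reads were dropped. The authors deposited raw counts per gene made with Subread 1.6.2. The deposited gene length is an other value, the summed exon length in bases. The condition of a library came from its label. Symbols were assigned with GENCODE M21.

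Counts were tested in edgeR 4.0.16 (R 4.3.3) by the quasi-likelihood test after TMM normalization, with filterByExpr (20914 genes) and all 18 libraries in a single fit by genotype, and p-values were adjusted over all genes with an FDR under 0.1. DESeq2 1.42.0 was the second test. CPM and RPKM used TMM library sizes. Both tests were tested on simulated data. Correlations used log2 CPM with 0.5 CPM added and 100000 permutations of the 18 mice. The precision is set by 13612381 or more counts per library and by 3 to 5 mice per group.

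Members, gene lists and the rule for named genes (those called, the 3 lowest p in each comparison, the 10 highest in WT, the highest of each family and a list of striatal channel genes) were chosen with earlier results of these data known. The correlations, the 6 genes common to both knock-in comparisons and the separation of Kcnip3 were chosen after their values were seen. Alternatives were other normalization, filters, a replicate block, Xist as a covariate, a robust fit, only the groups compared, an FDR of 0.05, leaving out each mouse and leaving out the libraries that stand apart. The values of some genes are not reported here.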

Additional observations from a re-analysis of the deposited data

Results flagged for a closer look

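Of 102 groups of 5 mice over 34 named genes, 11 held 1 mouse far from the other 4, by Dixon's ratio of its gap to the group's range. Chance alone flags about 1 in 20 groups. WT mouse 2 was high for Kcnd2 (212 CPM, others 141 to 159.9), Kcnh7 (67.3 CPM, others 44.5 to 50.4) and Kcnn3 (85.1 CPM, others 60.9 to 65.2). WT mouse 1 was low for Kcnab2 (141 CPM, others 172 to 178).

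zQ175 mouse 1, which had the highest thalamic and the lowest projection neuron marker sum of the 18 mice, was high for Kcnc2 (164 CPM, others 41.5 to 71.8) and Kcnn2 (50.8 CPM, others 39.1 to 41.3). It was low for Kcnip2 (41.8 CPM, others 82.2 to 97.4) and Kcns1 (1.64 CPM, others 3.39 to 3.59). zQ175 mouse 3 was low for Kcnq3 (265 CPM, others 312 to 327). In zQ175:CK2α’(±), mouse 2 was high for Kcne2 (12.5 CPM, others 0 to 0.450) and low for Kcnd2 (151 CPM, others 162 to 166). The part of tissue composition in these values was not tested.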

How the results depend on the processing

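No log2 fold change of a named gene turned its sign once called, and the number of members called moved in 3 of the 6 comparisons. In zQ175 against WT, where 1 was called, DESeq2 called 5 (855 of all genes), the fit without a filter on low counts 6 (451 of all genes) and a robust fit 2 (313). It was 0 at an FDR of 0.05 and with Xist as a covariate (161 of all genes), and 0 with only the groups compared, without zQ175 mice 1 and 5 and without the 4 libraries high in choroid plexus markers, where 0, 0 and 1 of all genes were called, and leaving out 1 mouse gave 0 to 2. In zQ175:CK2α’(±) against CK2α’(±), where 1 was called, DESeq2 and the fit without a filter each called 4 (322 and 297 of all genes), the fit with only these groups 7 (461), that without zQ175 mice 1 and 5 called 3 (222), that without the 4 choroid plexus libraries 0 (14), beside 124 of all genes in the fit reported, and leaving out 1 mouse gave 0 to 3. In zQ175 against zQ175:CK2α’(±), 1 was called without the filter (51 of all genes) and 0 otherwise. The exclusions of named libraries were added after seeing the data. With the replicate number as a block, 0 members were called in both knock-in comparisons (98 and 12 of all genes, Kcnh7 adjusted p = 0.118, Kcnip3 adjusted p = 0.173 by edgeR). The numbers share no stated litter or day, the 24 pairs of mice with the same number correlated between −0.136 and 0.120 in their deviations, and 1 of 18 mice correlated best with its own number, so this replicate block is no pairing. The cause of these shifts was not tested. Depth limits the 4 members under 1 CPM, and the 3 CK2α’(±) mice limit every comparison with that group.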
